A study of Mus musculus with 3 samples.

Results

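A set of 120 genes was bright in control cells and fell to roughly comparable fractions of the control level under 2 different hairpins against *Tet1*. The genes were chosen from these same values. A gene belonged to the set if it had a name in the table of probe sets that the authors selected, had an intensity of at least 1000 units in the control, was at most 55% of the control under each hairpin, and had a ratio of hairpin 2 to hairpin 1 between 0.625 and 1.6. The brightest probe set that met the rule stood for its gene. The rule also left out certain gene families and single genes by name, which removed 15 genes that met its limits: *Tet1* itself, the cartilage matrix genes *Acan*, *Vcan* and *Col11a1*, the cell cycle genes *Ccnb1*, *Ube2c* and *Prc1*, and *Cthrc1*, *Csf2rb*, *Ehf*, *Perp*, *Hsd11b1*, *Hoxa10*, *Mrps21* and *Slc40a1*. Some of these kept less of the control level than any member, such as *Perp* at 2276 units in the control and 261 and 233 units under the hairpins, so statements on the lowest values hold within the set only. The set was 120 of 1197 named genes on arrays of 35512 probe sets. Since the rule used the comparison of *Tet1* knockdown (KD) with control, the size and direction of that difference in these genes are a description and carry no test.

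The cells were ATDC5, a mouse chondroprogenitor line recorded as wild-type in genotype, kept for 15 days with insulin, transferrin and selenium to bring about chondrogenesis. All cultures received a lentivirus with a short hairpin RNA at day 0 and were selected with puromycin before differentiation. The control carried a nontarget hairpin (NT, 1 array), and the KD cells carried Tet1sh1 (hairpin 1, 1 array) or Tet1sh2 (hairpin 2, 1 array). Total RNA was hybridized to Affymetrix mouse gene arrays. The NT value therefore has no replicate, and hairpin and culture cannot be told apart. *Tet1* encodes a dioxygenase that converts 5-methylcytosine to 5-hydroxymethylcytosine, and its brightest probe set was 1626 units in NT and measured 843 under hairpin 1 and 726 under hairpin 2. Of the markers of the labelled cell type, *Col2a1* was at 4914 units, *Hapln1* at 2323 units and *Acan* at 1427 units in NT.

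A cell that differentiates towards cartilage first divides and later leaves the cell cycle, secretes a collagen and proteoglycan matrix, and responds to Wnt, hedgehog, BMP and growth factor signals that set the pace of maturation. Wnt signals reach the cell through Frizzled receptors, are potentiated by R-spondins acting through LGR receptors, and are held back outside the cell by secreted antagonists. Genes of the cell division machinery are transcribed together in cycling cells, often from promoters rich in CpG dinucleotides, the sites at which DNA is methylated and at which TET enzymes act.

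The promoters shown were chosen by the fraction of NT kept or by brightness in NT, apart from *Rpa3*, and they differed in their content of CpG dinucleotides. Methylation was not measured here. Each runs from 250 bases before to 50 bases after a transcription start in RefSeq (GRCm38.p6), 5′ to 3′ on the strand of the gene, with each CpG in capitals. *C1qtnf3*, *Serpinb9b* and *Fxyd5* kept the smallest fractions of the NT intensity among members with a printable promoter, *Dhrs7b* and *Mustn1* were among the brightest in NT, and *Rpa3*, the brightest gene of DNA replication in the set, was added after its values were seen.
C1qtnf3, chr15:10952082-10952381, plus strand: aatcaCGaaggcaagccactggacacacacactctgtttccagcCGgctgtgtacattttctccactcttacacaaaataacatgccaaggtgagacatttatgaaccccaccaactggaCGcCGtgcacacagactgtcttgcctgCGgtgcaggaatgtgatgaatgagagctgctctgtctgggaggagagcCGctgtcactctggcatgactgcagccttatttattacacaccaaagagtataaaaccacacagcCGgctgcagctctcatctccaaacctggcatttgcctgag
Serpinb9b, chr13:33027164-33027463, plus strand: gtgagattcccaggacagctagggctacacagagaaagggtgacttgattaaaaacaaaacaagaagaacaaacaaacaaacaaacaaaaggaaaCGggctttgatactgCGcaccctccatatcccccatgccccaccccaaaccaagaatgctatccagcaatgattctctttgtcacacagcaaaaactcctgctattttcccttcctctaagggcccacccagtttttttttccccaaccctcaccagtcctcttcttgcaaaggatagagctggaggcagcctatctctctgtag
Fxyd5, chr7:31042282-31042581, minus strand: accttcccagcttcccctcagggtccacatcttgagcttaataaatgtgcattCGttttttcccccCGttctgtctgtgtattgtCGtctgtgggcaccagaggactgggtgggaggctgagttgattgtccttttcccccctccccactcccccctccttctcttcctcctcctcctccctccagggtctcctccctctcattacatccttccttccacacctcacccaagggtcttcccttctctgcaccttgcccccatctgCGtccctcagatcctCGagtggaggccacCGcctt
Dhrs7b, chr11:60830381-60830680, plus strand: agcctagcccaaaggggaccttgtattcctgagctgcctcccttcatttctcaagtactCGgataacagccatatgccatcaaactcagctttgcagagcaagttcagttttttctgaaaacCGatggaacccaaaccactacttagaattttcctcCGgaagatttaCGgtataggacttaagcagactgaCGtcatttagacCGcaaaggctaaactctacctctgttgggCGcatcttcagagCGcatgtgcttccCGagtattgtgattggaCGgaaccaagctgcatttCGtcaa
Mustn1, chr14:30879007-30879306, plus strand: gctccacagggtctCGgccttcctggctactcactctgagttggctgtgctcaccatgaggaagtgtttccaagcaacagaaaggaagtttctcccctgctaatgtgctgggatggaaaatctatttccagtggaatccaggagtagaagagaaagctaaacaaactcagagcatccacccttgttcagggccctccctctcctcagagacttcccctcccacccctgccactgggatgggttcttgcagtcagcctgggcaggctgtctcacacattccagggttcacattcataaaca
Rpa3, chr6:8259092-8259391, minus strand: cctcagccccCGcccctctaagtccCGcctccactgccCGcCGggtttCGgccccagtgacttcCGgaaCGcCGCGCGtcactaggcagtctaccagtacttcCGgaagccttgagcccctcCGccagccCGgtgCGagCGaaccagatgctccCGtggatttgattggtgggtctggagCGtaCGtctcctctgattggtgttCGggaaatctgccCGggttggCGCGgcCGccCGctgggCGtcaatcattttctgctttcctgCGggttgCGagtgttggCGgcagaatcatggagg
The window of *Mustn1* held 1 CpG, that of *Serpinb9b* 2, that of *Fxyd5* 6, that of *C1qtnf3* 7, that of *Dhrs7b* 11 and that of *Rpa3* 28. The *C1qtnf3* window also contained TATAAA, the core of a TATA box.

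Promoter windows were found for 84 members and compared with those of 17492 protein-coding genes in the same annotation. The median window of the members held 18.5 CpG against 13 in all genes, and its GC content was 58.5% against 56.3%. The observed over expected CpG ratio, which corrects the CpG count for base composition, had a median of 0.73 in the members and 0.58 in all genes, and it was over 0.6 in 69.0% of the members and 48.3% of all genes. Within the set, the 19 members of cell division and DNA replication with a window had a median ratio of 0.81, and the other 65 a median of 0.71. AACAAT, a core sequence bound by SOX proteins, was searched on both strands and was found in 1 member window (1.19%) and in 9.49% of all windows. TATAAA on either strand was in 11.9% of the member windows and in 13.3% of all windows. These letters are a description of the windows and say nothing about which factors bind there. All genes include many that these cells do not express, so the comparison does not separate members from other abundant genes.

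In NT the members ranged from 1009.9 to 9856 units, with a median of 2021 units. Under hairpin 1 their intensity was 19.0% to 54.8% of NT with a median of 46.1%, and under hairpin 2 it was 15.6% to 54.9% with a median of 43.4%. Over all probe sets with at least 1000 units in NT the corresponding medians were 96.3% and 95.5%. Of the 120 genes, 68 were at most 50% of NT under both hairpins, 21 at most 40%, 8 at most 30%, 3 at most 25% and 1 at most 20%. The numeric part of the rule was met by 168 probe sets, or 0.473% of the array and 1.79% of the 9388 probe sets with at least 1000 units in NT, and 23 of them had no gene name. The mirror image of the rule, for probe sets brighter under both hairpins, was met by 361 of 8707 probe sets (4.15%). The brightness of a member in NT and the fraction it kept were hardly related, with a Spearman rho of 0.09 across the 120 genes, a description across genes of the same arrays. Both values were cut by the limits of the rule and NT is the denominator of the fraction, so nothing is read from this for other genes.

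**Figure D1:**
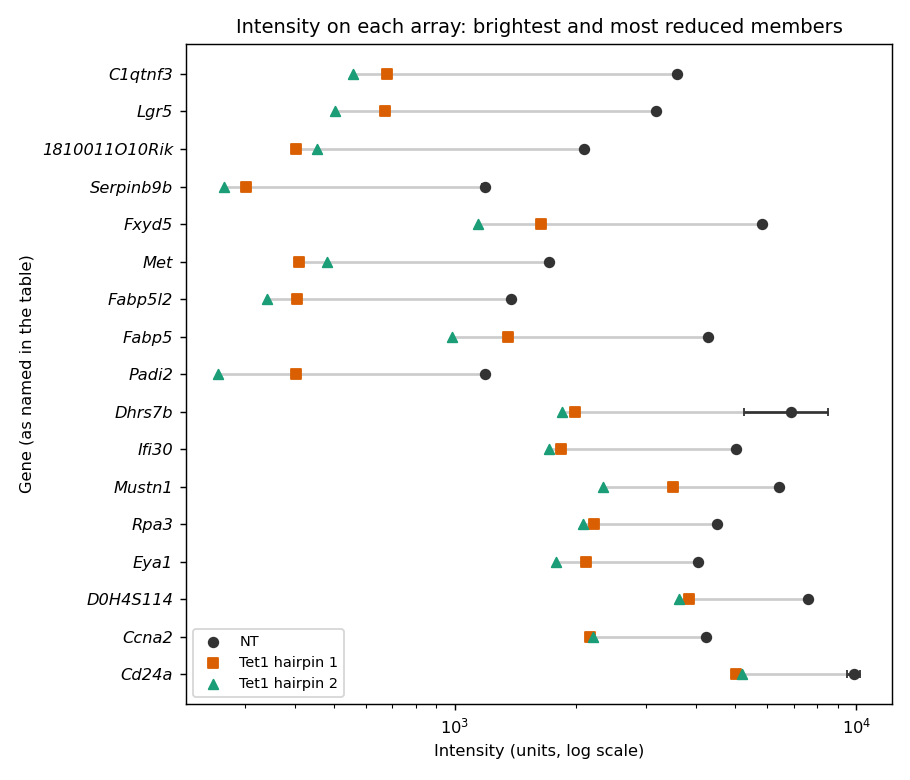
Intensity in units (log scale) of the 10 brightest members and the 10 that kept the smallest fraction of NT, 17 genes in all because some are both, ordered by fraction kept. Black circles are NT with the standard error over probes of the authors' model, which is wider than the symbol for *Dhrs7b* and *Cd24a*, and orange squares and green triangles are hairpins 1 and 2, which lie to the left of NT in every gene by the rule.

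The error that the deposited table gives for an NT value is a model standard error over the probes of a probe set, which covers neither culture nor hybridization. Its median over the members was 1.22% of the NT intensity. *Dhrs7b* was the exception, at 23.7% of its 6884 units, and *Raet1b* was next at 6.25%. The difference between the hairpins was the only measured spread between cultures, and its median was 3.95 percentage points of NT (SD over the hairpins, n = 2). The limits of the rule on the fraction and on the hairpin ratio capped this spread, so it does not hold for genes outside the set.

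Hairpin 2 gave the lower intensity in 79 members and hairpin 1 in 41. The ratio of hairpin 2 to hairpin 1 had a median of 0.94 in the members and 0.99 over all probe sets with at least 1000 units in NT, within limits that the rule set. *Mustn1*, a small nuclear protein of the musculoskeletal system, showed one of the wider gaps, as it had 6412 units in NT and measured 3499 under hairpin 1 and 2347 under hairpin 2. *Padi2*, which converts arginine to citrulline in proteins, went from 1192 units to 402 and 257 units. *Hmgb3*, a high mobility group chromatin protein, ran the other way, from 1421 units to 482 with hairpin 1 and 745 with hairpin 2.

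**Figure D2:**
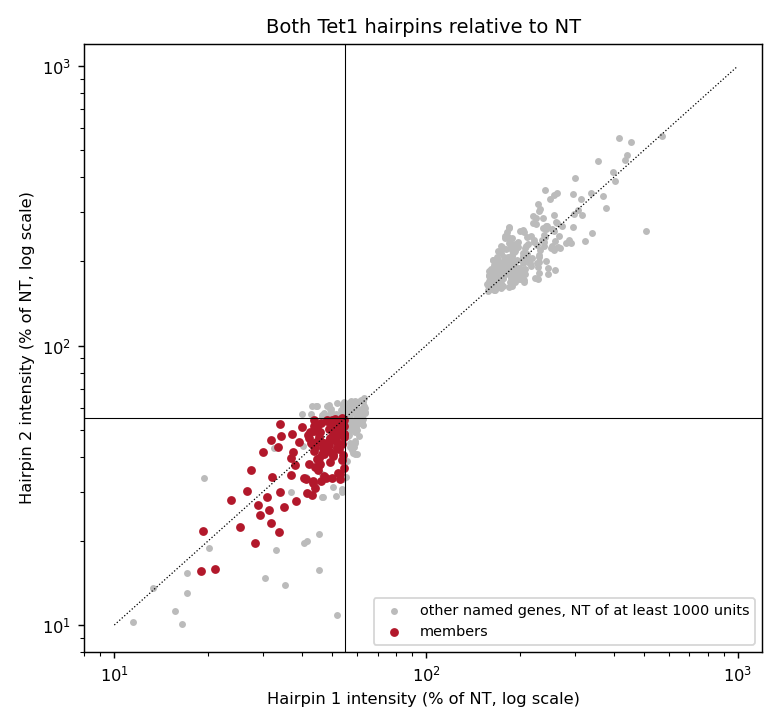
Intensity under hairpin 2 against intensity under hairpin 1, each in percent of NT on log scales. The members lie below 55% on both axes because of the rule, with most points a little below the diagonal, as in the 79 members lower under hairpin 2.

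By role, receptors, ligands and other surface or secreted proteins (15 genes) and Wnt pathway genes (4 genes) kept the least, with medians of 37.7% and 36.4% of NT over the mean of both hairpins. Genes of cell division and DNA replication, the most numerous group with 24 genes, kept a median of 47.5%, and genes of RNA synthesis, processing and nuclear transport (12 genes) kept 48.3%. The range within cell division was narrow, from 39.5% to 53.3%, while that of surface and secreted proteins ran from 17.3% to 52.7%. Roles were assigned with the values known, so the order of the groups is a description, and the groups are loose. *Serpinb9b* was placed with surface and secreted proteins although its product is intracellular, and the median of that group was 37.8% without it. *Mustn1*, a nuclear protein, was placed with cytoskeletal and folding proteins, whose median was 40.8% without it and 45.6% with it.

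**Figure D3:**
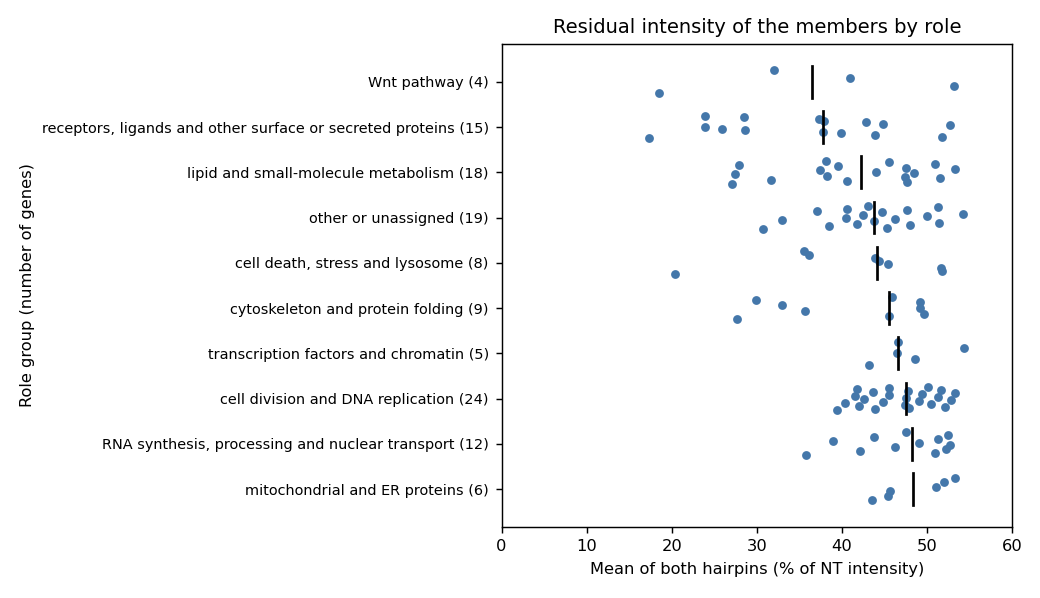
Mean intensity of both hairpins in percent of NT for each of the 120 genes (points), grouped by role with the number of genes in brackets, and the median of each group (bar). Cell division genes lie between 39.5% and 53.3% and RNA genes between 35.8% and 52.7%, while surface, secreted and Wnt pathway genes spread down to 17.3%.

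Within the set, the gene that kept least was *C1qtnf3*, an adipokine of the C1q and TNF family that is also made in cartilage. It was 3573 units in NT and measured 677 under hairpin 1 and 557 under hairpin 2, or 19.0% and 15.6% of NT. *Serpinb9b*, an intracellular serine protease inhibitor, was 1191 units in NT and 302 and 267 units under the hairpins. That both *Tet1* arrays lay near each other and well below NT in these genes follows from the rule.

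*Fxyd5*, a small membrane protein that modulates the sodium pump, went from 5809.7 units in NT to 1638 and 1146 units. *Met*, the receptor tyrosine kinase for hepatocyte growth factor, went from 1720.4 units to 409 and 481 units. *Nt5e*, the CD73 ectonucleotidase that produces adenosine from AMP, went from 1981 units to 529.7 and 599 units. These genes kept between 19.7% and 30.2% of NT on each *Tet1* array.

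*Cxcr7*, now *Ackr3*, a scavenging receptor for the chemokine CXCL12, was 1985 units in NT and 754 and 744 units under the hairpins, nearly the same in both. *Kcnj2*, an inward rectifier potassium channel, was 1457 units in NT and 613 and 549 units after KD. *Vamp5*, a vesicle SNARE protein, was 2004 units in NT and 872 and 647 units after KD. *Cd24a*, a glycosylated surface protein, was the brightest member, at 9856 units in NT and at 5031 and 5182 units after KD. The remaining genes of this group were *Tmem154*, *Psca*, *Tmem206* (now *Pacc1*), *Pdgfc*, *Cd109* and *Raet1b*, which lay within the range of the group.

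The Wnt pathway genes acted at different steps. *Lgr5*, a receptor for R-spondins, was 3173 units in NT and measured 669.9 under hairpin 1 and 502 under hairpin 2, or 21.1% and 15.8% of NT. *Wif1* and *Sfrp2* encode secreted proteins that bind Wnt ligands. *Wif1* was 3098 units in NT and 1057 and 925 units after KD. *Sfrp2* was 1646 units in NT and 901 and 851 units after KD, and at 54.8% under hairpin 1 it was among the members closest to the limit. *Fzd6*, a Frizzled receptor, was the remaining gene, with values inside the range of the group.

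In lipid and small-molecule metabolism (18 genes) the median was 42.3% of NT. *Fabp5*, a carrier of fatty acids and retinoic acid in the cytosol, went from 4269 units in NT to 1356 and 987 units. *Fabp5l2*, annotated in RefSeq as a pseudogene of that family, went from 1379.95 units to 405 and 342 units. *Fabp5* and *Fabp5l2* may share probes, and so their values are not independent of each other. *Dhrs7b*, a short-chain reductase of peroxisomes that serves ether lipid synthesis, went from 6884 units to 1989 and 1853 units, with the uncertain NT value given above.

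*Ormdl2*, a regulator of serine palmitoyltransferase and thereby of sphingolipid synthesis, was 1009.9 units in NT and measured 276 under hairpin 1 and 364 under hairpin 2. *Smpd3*, the neutral sphingomyelinase needed for normal growth plate cartilage and bone in mice, was 1277 units in NT and 561 and 396 units after KD. *Bdh2*, a cytosolic hydroxybutyrate dehydrogenase, was 1942 units in NT and 843 and 639 units after KD. *Mgst2*, a microsomal glutathione transferase, was 2039 units in NT and 764 and 846 units after KD.

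*Acadm*, the medium-chain acyl-CoA dehydrogenase of mitochondrial fatty acid oxidation, went from 3213 units to 1577 and 1732 units. Each of these enzymes was well under its NT value on both *Tet1* arrays, as the rule required. *Gdpd1*, *St6gal1*, *Impa2*, *Pigf*, *Lyplal1*, *Dpm3*, *Them2* (now *Acot13*), *Nit2*, *Gmpr2* and *Nudt5* completed the group, which ran from 27.1% to 53.3% of NT.

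The 24 genes of cell division and DNA replication covered most steps of the cycle. *Rpa3*, a subunit of the replication protein A complex that coats single-stranded DNA, was 4505 units in NT and 2218 and 2084 units after KD. *Ccna2*, the cyclin of S phase and of entry into mitosis, was 4232 units in NT and 2167 and 2209 units after KD. *2810417H13Rik*, now *Pclaf*, a PCNA-associated factor, was 3292 units in NT and 1521 and 1078 units after KD. The hairpins were nearly equal for *Ccna2* and further apart for *Pclaf*.

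*Cenpa*, the histone H3 variant that marks centromeres, was 2627 units in NT and 1149 and 1351 units after KD. *Aurkb*, the kinase of the chromosomal passenger complex, was 2547 units in NT and 1339.9 and 1232 units after KD. Other members of the group acted in replication and its chromatin (*Cdc45l*, now *Cdc45*, *Asf1b* and the linker histone *Hist1h1a*, now *H1f1*), in control of cyclin-dependent kinases (*Ccne2*, *Cks1b*, *Cdkn3*), at centromeres (*Cenpq* and *Prr6*, now *Cenpv*), in anaphase (*Cdc20* and *Pttg1*, the securin), on the spindle (*Nusap1*, *Dlgap5*, *Tacc3*, *Ckap2* and *Ckap2l*) and in cytokinesis (*Ect2*). *Cdca3*, *6720460F02Rik* (now *Pimreg*) and *1190002H23Rik* (now *Rgcc*) completed it. Over the mean of both hairpins every gene of the group kept at least 39.5% of NT, while *Pclaf* kept 32.7% under hairpin 2 alone.

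RNA synthesis and processing was represented by spliceosome and polymerase subunits. *Snrpg*, a core protein of spliceosomal particles, was 3840.4 units in NT and 1973 and 2062 units after KD. *Ppih*, a cyclophilin of the spliceosome, was 2443 units in NT and 952 and 1104 units after KD. *Nup35*, a nuclear pore protein, was 2973 units in NT and 1591 and 1517 units after KD.

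*Rangrf*, which binds the nuclear transport GTPase Ran, was 1375 units in NT and 639 and 565 units after KD. *Snora65*, a small nucleolar RNA that guides pseudouridylation, was 1068 units in NT and measured 319.8 under hairpin 1 and 445 under hairpin 2, and kept the least of the group. The others were *Lsm3* and *Lsm4* of the ring that binds spliceosomal RNA, *Polr2e* and *Rpo1-3* (now *Polr1d*), which are shared between nuclear RNA polymerases, *Josd3* (now *Taf1d*), *0610038D11Rik* (now *Trmt112*) and *Rbmx*.

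Genes of cell death, stress and the lysosome (8 genes) had a median of 44.1% of NT. *1810011O10Rik*, now *Tcim*, a small protein described in human cells as a regulator of transcription and Wnt signalling, was 2094 units in NT and 402 and 453 units after KD, among the smallest fractions in the set. *Ifi30*, a lysosomal thiol reductase that is inducible by interferon-gamma, was 5012 units in NT and 1845 and 1721 units after KD. *Bmf*, a BH3-only protein that promotes apoptosis, was 2846 units in NT and 1223 and 831 units after KD. *Pdcd10*, a scaffold protein of the STRIPAK and cerebral cavernous malformation complexes, was 2122 units in NT and 1039 and 888 units after KD. *Casp6*, an executioner caspase, *Tifa*, *Hace1* and *Egln3*, a prolyl hydroxylase of the hypoxia pathway, completed the group.

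Cytoskeletal and folding proteins (9 genes) had a median of 45.6% of NT. *Anxa8*, a calcium-dependent membrane-binding annexin, was 1669 units in NT and 516 and 481 units after KD. *Tes*, a focal adhesion protein with LIM domains, was 2680.3 units in NT and 859 and 908 units after KD. *D0H4S114*, now *Nrep*, came next to *Cd24a* in brightness, at 7574 units in NT and 3822 and 3629.6 units after KD. *Tcp1*, a subunit of the TRiC chaperonin, was 1012 units in NT and 475 and 454 units after KD. The others were *Mustn1*, a nuclear protein, and *Padi2*, an enzyme that modifies proteins, both described above, and *Slain2*, *Krt10* and *Tbc1d7*. The group is loose, so its median does not stand for cytoskeletal and folding proteins alone.

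Among transcription factors and chromatin proteins (5 genes), *Eya1*, a phosphatase and transcriptional co-activator, went from 4027 units in NT to 2118 and 1791 units. *Fam60a*, now *Sinhcaf*, a subunit of the SIN3 histone deacetylase complex, went from 2534 units to 1109.8 and 1251 units. *B230315N10Rik*, now *Zfp938*, a zinc finger protein, went from 2400.2 units to 1308 and 1299 units. *Sox2*, a factor of stem cells and neural progenitors whose value was chosen after it was seen, went from 2651 units to 1294 and 1170.1 units, and *Hmgb3* was described above. Mitochondrial and endoplasmic reticulum proteins (6 genes) had a median of 48.3% of NT and comprised *1110019J04Rik* (now *Tomm5*), *1700034H14Rik* (now *Timm21*), *Immp2l*, *Cox4nb* (now *Emc8*), *1810015C04Rik* (now *Retreg1*) and *1200003C05Rik* (now *Jkamp*).

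The 19 genes without an assigned role had a median of 43.8% of NT. They included the RefSeq pseudogenes *EG620782*, *EG665565*, *EG620119* and *EG435373*, the long noncoding RNA *2010204K13Rik*, and *EG668063*, *2810001A02Rik*, *OTTMUSG00000015632*, *EG626573* and *ENSMUSG00000063025*, whose names did not match the annotation. The protein-coding genes among them were *1810046J19Rik* (now *Mien1*), *Commd2*, *Tmem106c*, *Ccdc142*, *EG245305* (now *B230307C23Rik*), *2310039H08Rik*, *6330416G13Rik* (now *Tmem268*), *Narf* and *1700029F09Rik* (now *Tex30*). Over the whole set 114 names matched RefSeq, of which 107 were protein-coding and 5 pseudogenes. A pseudogene's probe set can pick up transcripts of its parent gene, so its intensity need not be its own.

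In a bulk sample, fewer cells of a type and less RNA per cell cannot be told apart, and this holds for every gene here. Cell type markers were summed only where they had a name among the probe sets that the authors selected for a difference on these samples. A difference between NT and KD in each of these markers was therefore fixed in advance, and the sums went in both directions. Markers without a name in that selection were not looked at. Of 11 chondrocyte markers 3 were named, and their intensities summed to 8665 units in NT, 3212 with hairpin 1 and 1917 with hairpin 2. The 3 named of 8 fibroblast markers summed to 2510.5, 10921 and 8284 units, and the 2 named of 5 osteoblast markers to 2893, 7601 and 6840.2 units. The 3 named of 9 epithelial markers, of which *Psca* is a member, summed to 5085, 1065 and 867 units. The 2 named of 7 adipocyte markers summed to 1467, 301 and 249.8 units. Of 8 leukocyte markers 2 were named and went opposite ways, *Cd68* from 4424 units to 1458 and 819.6 units and *Lyz2* from 488 units to 1974 and 1400.1 units. Apart from *Psca* none of the named markers is a member, and the rule left out *Acan*, *Hapln1*, *Cd68*, *Perp*, *Ehf* and *Fabp4* by name. No muscle or endothelial marker was named. The part of these shifts in the values of the members was not tested.

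Other genes of the members' pathways were taken from lists and read in limma, which called 106 of 27311 probe sets lower (0.388%) and 372 higher (1.36%) after KD at an adjusted p under 0.05. The listed genes with a name had all been selected by the authors on these same samples, so their directions are not independent evidence. The 120 members had 39 probe sets called lower, against 0.82% of tested probe sets with at least 1000 units in NT, and nothing is read from this because the rule used the same contrast. Over all 1197 named genes the median log2 fold was 0.85, and over all tested probe sets it was -0.12.

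Of 30 genes on the cell cycle list 14 were named, and all 14 were lower under both hairpins, as were 487 of all 1197 named genes. Besides the members *Ccna2*, *Cenpa* and *Aurkb*, 3 of them, the mitotic cyclin gene *Ccnb1*, *Ube2c*, the ubiquitin-conjugating enzyme of the anaphase-promoting complex, and *Prc1*, a crosslinker of the spindle midzone, met the limits of the rule and were left out by name, so that their lower intensity was fixed by the rule and carries no test. The other 8, *Cdc2a*, *Ccnb2*, *Plk1*, *Kif11*, *Kif20a*, *Aurka*, *Birc5* and *Gmnn*, had log2 folds between -0.76 and -1.35 and limma adjusted p-values between 0.101 and 0.238. The median log2 fold of the 14 named genes was -0.98.

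Of 25 listed Wnt and R-spondin genes 8 were named, 3 of them members. The member *Fzd6*, a Frizzled receptor, was not on the list. *Frzb*, a secreted Wnt antagonist of cartilage, fell by 3.13 ± 0.40 (log2, SE), from 935 units to 116 and 98.4 units, at a limma adjusted p of 0.000439. *Rnf43*, the membrane ubiquitin ligase that removes Frizzled receptors and is itself antagonized by R-spondins, missed the threshold at a log2 fold of -1.43 and a limma adjusted p of 0.0781. *Lrp5*, *Sfrp1* and *Rspo3* missed it as well, at log2 folds of 0.95, 1.38 and 1.48. The named Wnt genes therefore included both signs.

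Of 18 genes of fatty acid binding and uptake 5 were named, of which *Fabp5* and *Fabp5l2* are members and are not tested. *Fabp4* passed at a log2 fold of -2.29 ± 0.38 (SE) and a limma adjusted p of 0.00421, and *Crabp2* and *Acsl4* missed the threshold at log2 folds of -1.39 and 0.82. Of 12 ectonucleotidases and phosphatases 3 were named, and *Enpp3* fell by 1.83 ± 0.38 (log2, SE; limma adjusted p = 0.0218) while *Enpp1* missed the threshold at a log2 fold of -0.83. The call of *Enpp3* was lost after median scaling (limma adjusted p = 0.118) and quantile normalization (limma adjusted p = 0.148). *Ppargc1a*, the coactivator of mitochondrial biogenesis, fell by 2.61 ± 0.42 (log2, SE; limma adjusted p = 0.00336) on the list that holds *Acadm*. *Ormdl1*, the close relative of *Ormdl2*, was 999.9 units in NT and 393 and 529 units after KD (limma adjusted p = 0.157).

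In some lists the other named genes had the opposite sign to the member, which is the sign of most of the table, since 710 of all 1197 named genes were higher under both hairpins. Of 24 glutathione and redox genes 5 were named, and besides *Mgst2* the other 4, *Gsta1*, *Gsta2*, *Gsta4* and *Gstm2*, had positive log2 folds between 0.95 and 1.18, none of which passed limma. Of 25 listed receptor tyrosine kinases and ligands 7 were named, and besides *Met* the other 6 were brighter after KD. The list was not complete. *Pdgfc*, a ligand of this class and a member, was not on it and went from 3212 units in NT to 1582 and 1234 units, as the rule required. Of the listed genes, *Pdgfra* was higher by 1.47 ± 0.27 (log2, SE; limma adjusted p = 0.00941) and *Ereg*, an EGF receptor ligand, by 2.28 ± 0.33 (log2, SE; limma adjusted p = 0.00154). After quantile normalization the call of *Pdgfra* was lost (limma adjusted p = 0.0709). The list of 25 genes stimulated by type I interferon had 24 with a name, and 23 were brighter under both hairpins, 22 of them called higher in limma. *Ifi30*, described above as inducible by interferon-gamma, was the 1 named gene of that list with a lower intensity. It is a member, so its direction was fixed by the rule.

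**Figure D4:**
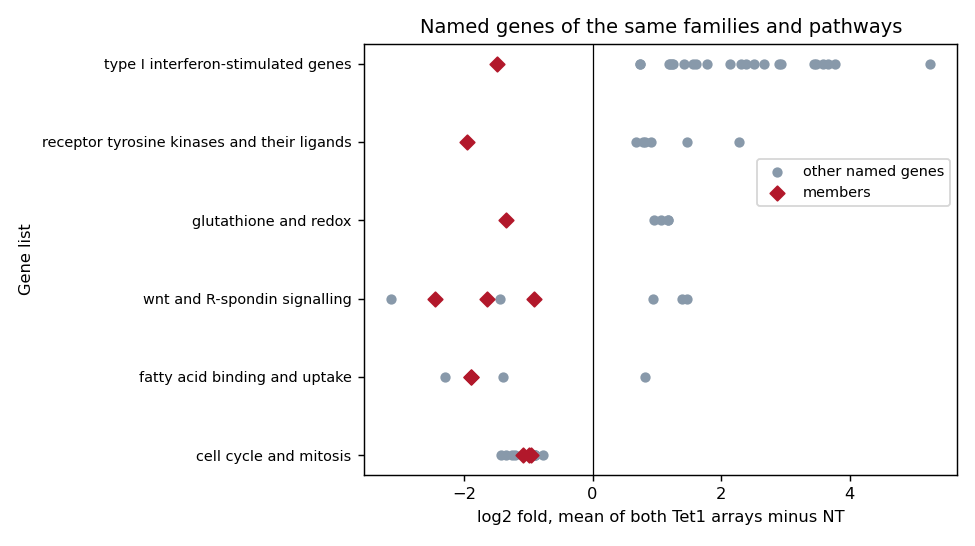
The log2 fold of each named gene (mean of both *Tet1* arrays minus NT) by pathway list, with members marked apart from other named genes and a line at no difference. Interferon-stimulated genes lie to the right of the line apart from the member *Ifi30*, and cell cycle genes to the left.

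A total of 9 members had more than 1 named probe set, 21 in all, and the 12 probe sets not used were lower than NT under both hairpins as well. All 21 were among those the authors selected for a difference on these samples, so a probe set without a difference could not appear. Other probe sets of these genes on the arrays were not looked at. Of the 21, 16 met the rule. The 4 probe sets of *Ppih* kept 38.2% to 39.0% of NT under hairpin 1 and 42.8% to 45.2% under hairpin 2. *Fabp5* kept 31.8% and 23.1% on one probe set and 31.5% and 23.3% on the other. Such closeness can come from probes shared between a gene and its copies, so these probe sets are not replicates.

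*Snrpg* differed between its probe sets. Its brightest probe set went from 5935 units in NT to 3729 and 3631 units, or 62.8% and 61.2%, which is outside the rule, while the dimmer one that stands for it kept 51.4% and 53.7%. On the probe set with the highest mean, *Hmgb3* kept 45.3% and 60.4% and *Rangrf* 48.8% and 55.3%, also outside the rule. The other probe set of *Pdcd10* was 762 units in NT, under the limit, against 2122 units on the one used. It kept 42.7% under hairpin 1 and 39.9% under hairpin 2. When the probe sets of a gene were reduced to the brightest before the rule was applied, 117 genes were left.

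The thresholds cut through a continuous range. *Ormdl2*, *EG435373* and *Tcp1* lay just inside the limit on NT intensity, at 1009.9, 1010.3 and 1012 units, and *Ormdl1*, *Cdo1* and *Prss35* just outside, at 999.9, 999.1 and 998.7 units. Just inside the limit on the fraction were *Tmem268* at 54.9%, *Sfrp2* at 54.8% and *Mien1* at 54.7% under the hairpin that kept more, and just outside were *Plk1*, *Hebp1* and *Chid1* at 55.3% each. On the ratio between hairpins, *OTTMUSG00000015632* at 0.63, *Padi2* at 0.64 and *Hmgb3* at 1.55 were inside, and *Ldhb* at 0.62 and *Hist2h2bb* and *EG546080* at 0.61 outside. Of the named probe sets, 114 missed the rule by the fraction alone, 120 by the NT intensity alone and 12 by the hairpin ratio alone.

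By position, 16 of the 114 members with a chromosome (14.0%) lay on chromosome 3, which holds 4.49% of 21900 protein-coding genes of the annotation and 6.42% of the 1152 named genes with a chromosome. They were *Fabp5*, *Ccna2*, *Cks1b*, *Acadm*, *Pdgfc*, *Sox2*, *Casp6*, *Commd2*, *Pdcd10*, *Dpm3*, *Mgst2*, *Bdh2*, *Ect2*, *Sfrp2*, *Tmem154* and *Tifa*, which belong to 7 of the role groups. Chromosome 3 was picked out after all chromosomes had been looked at, and its share is a description without a test.

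Direction on chromosome 3 was described over all named genes of the table, whether members or not. Of 74 named genes there, 52 (70.3%) were lower under both hairpins, of which 36 were not members, and the median log2 fold was -0.92. Elsewhere 404 of 1078 named genes (37.5%) were lower, and over the other nuclear chromosomes the share ran from 25.7% to 48.9%. Chromosome 3 held 11.4% of all lower and 3.16% of all higher named genes. Neighbouring members were few, with *Rangrf* and *Aurkb* on chromosome 11 and *Tes* and *Met* on chromosome 6 separated by 2 protein-coding genes each.

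**Figure D5:**
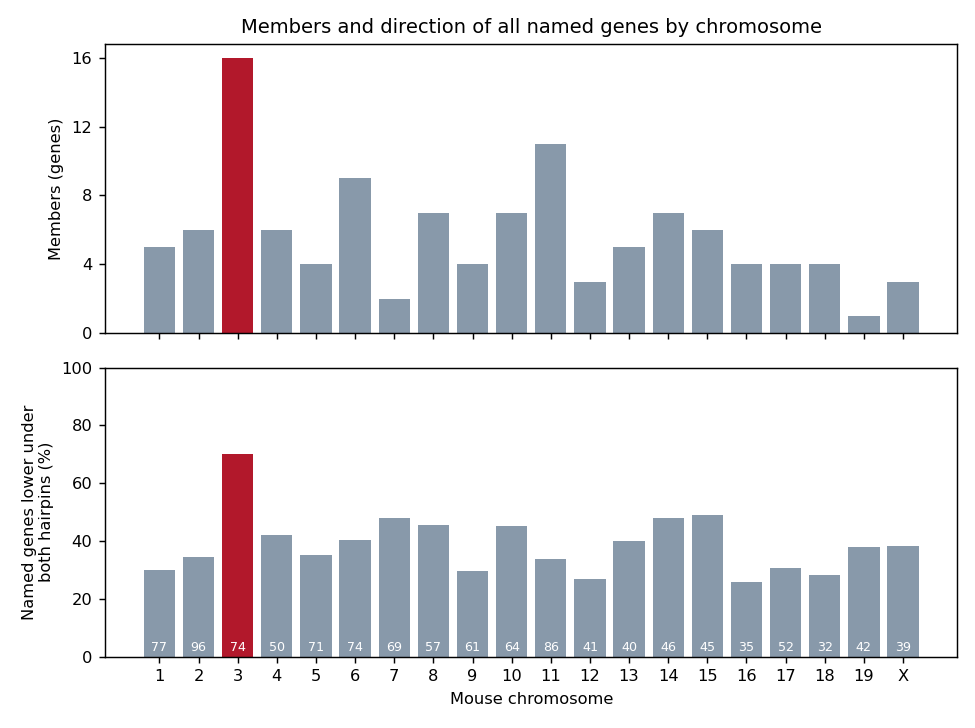
Number of members (upper panel) and percent of named genes lower than NT under both hairpins (lower panel) on each mouse chromosome, with chromosome 3 in red. Chromosome 3 holds 16 members, and 70.3% of its 74 named genes were lower against 25.7% to 48.9% on the other chromosomes.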

How the data were processed

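The authors used dChip, with an invariant-set normalization and its model-based summary, and deposited intensity values on a linear scale, 1 value per probe set and array. A second deposited table held the same intensity values for 1524 selected probe sets with gene names, the standard error of the NT value, and the authors' own folds, bounds and differences, which were not used. The settings in that table number the arrays up to 4, so the model values, the NT error and the selection of probe sets may rest on a further array, which was not analysed here. Their processing notes give mm9 as build. Invariant-set scaling takes the bulk of probes as unchanged, so a shift of all genes would not be seen. Array medians were 305 units in NT, 279.6 under hairpin 1 and 264 under hairpin 2.

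Members were found from the ratios of each *Tet1* intensity to NT. The members, the gene lists, the role groups and the promoter motifs were chosen with earlier results of these data known. For the other genes of each list, values under 10 units were set to 10, log2 was taken, and 27311 probe sets averaging 100 units or more were fitted in limma 3.58.1 (R 4.3.3, lmFit and eBayes with an intensity trend, two-sided, Benjamini-Hochberg over all of them, threshold 0.05). With 1 residual degree of freedom, the p-values rest on the spread of the hairpins alone, and the lone NT array is assumed to vary alike. Tested on simulated arrays drawn from the fitted spread, the share of false calls was on average well above the threshold, so adjusted p-values may be too small. Gene names matched RefSeq (GRCm38.p6) by accession for 92 members, by symbol for 8 and by older symbol for 14, and chromosomes and promoters come from there. Values were given for the 10 brightest members, the 10 with the smallest fraction of NT, members on a list or with several probe sets, and genes next to a threshold. A protein comparison of *Fabp5* and *Fabp5l2* was not run. No sequence of a hairpin was used here. The list of serpins and cystatins is not reported here.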

Additional observations from a re-analysis of the deposited data

How the results depend on the processing

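The number of members depended on the limits. It was 68 with a limit of 0.5 on the fraction of NT and 22 with 0.4, 200 with at least 500 units in NT and 61 with at least 2000 units. After each array was divided by its median it was 60, of which 59 were among the 120, and the median fraction of NT over the 120 rose from 44.9% to 50.4%. Quantile normalization gave 121 genes, 115 of them shared. With 1 hairpin left out it was 159 to 169 genes, which had to include all 120 because this only removes limits of the rule. The median fraction over the 120 was then 43.4% to 46.1%. Without the limit on the hairpin ratio the number of members was 132, and with every probe set of a gene required to meet the rule it was 116. Chosen after seeing the data, it was 117 with the brightest probe set taken first and 135 with no gene left out by name.

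In limma the 106 probe sets lower and 372 higher became 109 and 365 with log2(value + 32), 37 and 309 after median scaling and 31 and 173 after quantile normalization. Without the filter on dim probe sets limma called 0 lower and 0 higher, with 2229 probe sets at an unadjusted p under 0.05. Of 47 calls among the listed genes that are not members, which include 4 genes that met the limits and were left out by name, log2(value + 32) kept 47, median scaling 35, quantile normalization 27 and the fit without the filter 0, and none of the 92 listed genes turned sign. Leaving out a *Tet1* array left no residual degrees of freedom and gave no limma value. No paired analysis was possible because there was 1 NT array and the replicate numbers of the *Tet1* arrays name different hairpins. The NT array has no replicate, and signal over background was not measured.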
